A study of Drosophila melanogaster with 8 samples.

Results

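The genes described here encode 10 RNA-binding proteins of Drosophila melanogaster, namely shep, Syp, cpo, pum, heph, how, mub, bru3, orb2 and Rbfox1, out of 18277 annotated genes on placed chromosomes. The genes shep, Syp and cpo were chosen on the peak lists themselves, as strong Argonaute 2 (AGO2) sites called in mock-treated cells and not after triptolide, so the loss of those sites is a description with no test. The other 7 genes were listed with earlier results of these data known. AGO2 binding had been assayed by chromatin immunoprecipitation and sequencing in Kc167 cells, an established embryonic cell line whose cells are female. Cells received triptolide at 10 µM for 60 min or a mock treatment, and 2 immunoprecipitations with the same AGO2 antibody were sequenced for each treatment. The labels do not say whether replicates were separate cultures, so the spread between lists may be technical.

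AGO2 is the Argonaute protein that carries short interfering RNAs in Drosophila, and part of it is found on chromatin at active promoters. Triptolide inhibits the general transcription factor TFIIH and so blocks initiation by RNA polymerase II. RNA-binding proteins of the families examined here act on splicing, stability and translation of messenger RNAs. The genes described here are long, and all but how have several alternative transcription start sites (TSSs). Alternative TSSs can add different 5′ exons to a shared coding region.

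The members do different work on RNA. Alan shepard (shep) and Couch potato (cpo) carry RNA recognition motifs and are known from the nervous system, and Syncrip (Syp) sets the timing of neuronal identities in opposition to Imp. Pumilio (pum) represses translation of its target messenger RNAs, and Orb2 is a cytoplasmic polyadenylation element binding protein required for long-term memory. Hephaestus (heph) is the fly polypyrimidine tract binding protein and Rbfox1 is a Fox-1 family protein, both of which regulate splicing. Held out wings (how) is a STAR family protein of muscle and tendon cells, mub is a KH domain protein, and bru3 belongs to the Bruno or CELF family.

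Short stretches of the dm6 reference within 100 bp of a summit illustrate the motifs counted at the mock and triptolide peaks of these genes. Some of them do not contain the summit itself. Each run has 30 bases, is written 5′ to 3′ on the strand of the gene and comes from the RefSeq copy of the Release 6 genome. Capitals mark GAGAG or its complement CTCTC, the core of the GAGA element, at mock sites, and the repeat CAGCAGCAG at triptolide sites. The 5 mock sites are those of the 3 genes chosen on the lists, including the 1 site that persisted after triptolide, and the strongest pum site. The 4 triptolide sites lie in coding sequence of cpo, pum, mub and Rbfox1.
shep, mock only, chr3L:5184944-5184973, minus strand: tttgtcattgcgcCTCTCtgcgctcttccc
Syp TSS 2, mock only, chr3R:20778624-20778653, plus strand: ttgtgccgcaGAGAGAGgttgcaataccaa
Syp TSS 4, mock and triptolide, chr3R:20782760-20782789, plus strand: ccttcgctctttCTCTCgcttgagtttttt
cpo, mock only, chr3R:17943941-17943970, plus strand: aaGAGAGAGtgcGAGAGAGAGAGAGgaggt
pum TSS 3, mock only, chr3R:9227110-9227139, minus strand: tggGAGAGcgacaGAGAGggtgccagagcg
cpo coding sequence, triptolide only, chr3R:17967051-17967080, plus strand: cgcccaccacCAGCAGCAGCAGcaacagca
pum coding sequence, triptolide only, chr3R:9080770-9080799, minus strand: ttttggccgccCAGCAGCAGgcgcaaaatg
mub coding sequence, triptolide only, chr3L:21921106-21921135, plus strand: ccgagccCAGCAGCAGCAGcacgagatgac
Rbfox1 coding sequence, triptolide only, chr3L:10568260-10568289, plus strand: acaaCAGCAGCAGCAGCAGgcccagcagca

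The 4 lists differed in length, with 5594 and 5873 peaks after triptolide and 1055 and 1919 peaks in mock cells. A peak is an interval that the authors' caller found enriched over the input of the same sample, its summit is the position of highest signal, and its fold is the enrichment over local background at the summit. Read numbers were not used here and the depth of each library is unknown. The absence of a peak therefore means that none passed the caller's threshold. Neither loss nor gain of AGO2 can be told apart from a weaker or shallower library. After triptolide 19 and 25 peaks lay in or within 1500 bp of the 10 genes, or 0.340% and 0.426% of each list, against 10 and 15 peaks in mock cells, or 0.948% and 0.782%. The 10 genes are long, at 17.4 kb for orb2 to 281 kb for bru3, and together span 1152 kb with 35 TSS clusters, in which TSSs within 300 bp of each other on 1 gene are merged and numbered from the 5′ end of the gene.

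**Figure D1:**
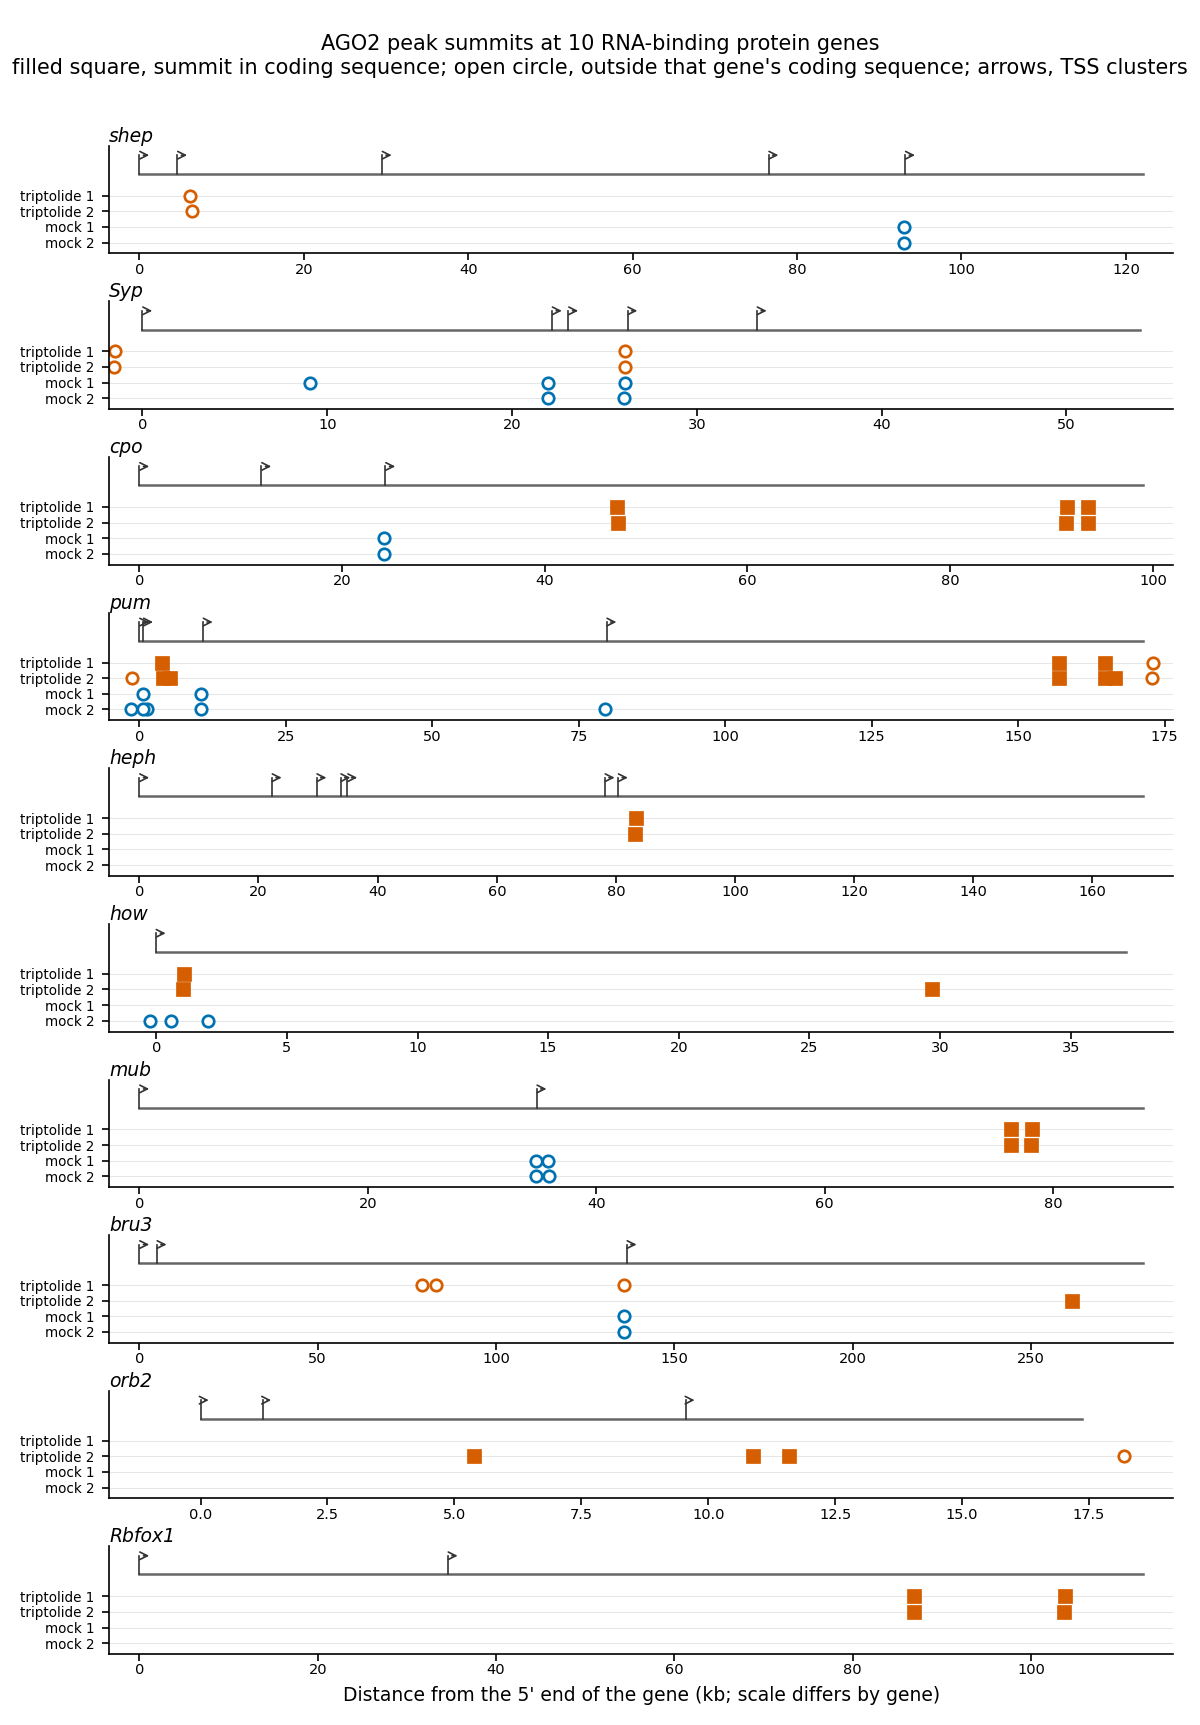
Summits of AGO2 peaks along each of the 10 genes, with triptolide lists in orange above mock lists in blue; the x axis is the distance from the 5′ end of the gene in kb, arrows mark TSS clusters, and filled squares are summits in coding sequence of that gene. Mock summits sat beside arrows in shep, Syp, cpo, pum, how and mub, while 12 of 19 and 19 of 25 triptolide summits were filled squares.

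Peaks were present at most of the genes under both treatments. Both triptolide lists held a peak at 9 of the 10 genes, against 25.2% of all genes and 58.5% of the 1234 genes at least as long as orb2. Both mock lists held a peak at 6 of the 10 genes, namely shep, Syp, cpo, pum, mub and bru3, against 6.2% of all genes and 27.1% of the long ones. The long genes, here and below, are cut at the shortest member, while the median length of the members is 106 kb. Their length is thus not matched to that of the members. The number of genes with a peak in both triptolide lists was 3 when peaks needed a −log10 q-value of at least 5, whereas 6 genes still had a peak in both mock lists. The share of all genes at this limit was not computed, so the fall cannot be read as particular to these genes. The high counts are those of genes picked partly for having peaks and are given beside the background without a test.

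At shep the mock peaks were among the highest-scoring of the mock lists and neither of them was called after triptolide. The fold was 8.45 in mock replicate 1 and 13.7 in mock replicate 2, with summits 4 bp apart, in a region at chr3L:5184605-5185306 that had no peak in either triptolide list. Both summits lay upstream of TSS 5 of 5, the TSS nearest the 3′ end, from which 3 of the 8 annotated transcripts begin. The region overlapped the 5′ UTR of those transcripts, but the summits were 150 and 146 bp before the TSS, in an intron of the longer transcripts. After triptolide shep instead had 1 peak per list in the 5′ UTR 1596 and 1743 bp after TSS 2, with folds of 5.36 and 3.06.

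At Syp the mock sites behaved in 2 ways. The site before TSS 2 (chr3R:20778207-20778982) had folds of 16.1 and 11.6 in mock replicates 1 and 2 and no peak after triptolide. The site before TSS 4 (chr3R:20782479-20783218) was called in all 4 lists, with folds of 7.16 and 2.87 after triptolide against 8.81 and 9.08 in mock cells. All 4 lists thus held a peak before TSS 4, both triptolide folds below both mock folds. Its −log10 q-value was 29.3 and 4.88 after triptolide and 49.5 and 109 in mock cells. As a percentile of the scores within each list, it stood at 99.9 and 72.3 after triptolide and at 98.0 and 96.7 in mock cells. Its standing was thus below that of the mock lists in triptolide replicate 2 only. Each of these TSSs starts 3 of the 20 annotated transcripts, and the printed runs show GAGAG or CTCTC at both sites. Another mock peak, with a fold of 3.85, was called in replicate 1 only. The remaining Syp peak after triptolide, called in both lists with folds of 4.53 and 4.22, was 1489 and 1536 bp before TSS 1 and within the neighbouring gene CG42322.

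At cpo the mock summits coincided to within 1 bp between replicates and lay 149 and 150 bp before TSS 3 of 3, which starts 6 of the 12 transcripts. Their folds were 10.2 and 12.2, and the region (chr3R:17943676-17944281) had no peak after triptolide. Triptolide lists held 3 other peaks each in cpo, all 3 in coding sequence 22.9 to 69.3 kb downstream of that TSS. Their folds were 3.63, 4.72 and 4.55 in triptolide replicate 1 and 2.81, 4.81 and 5.62 in replicate 2, below both folds of the mock site.

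Among the 597 mock regions lost genome-wide, the sites of shep, Syp and cpo held ranks 1, 2 and 4 by mean score percentile in the mock lists, at 97.8, 97.7 and 96.3. These ranks are what the choice of genes rests on. The region at rank 3 lay in no gene and had a percentile of 96.6, and that at rank 5 lay at fng, which encodes the Notch glycosyltransferase Fringe, and lncRNA:CR45243 with a percentile of 96.0.

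At pum the mock peaks shared by both lists sat before alternative TSSs as well, and the triptolide peaks within the gene lay in its coding exons. The site before TSS 3 had folds of 8.01 and 13.3 and that before TSS 2 folds of 5.46 and 7.51 in mock replicates 1 and 2, with no peak at either after triptolide. A site before TSS 4 was called in mock replicate 2 only, with a fold of 6.47. After triptolide 3 coding regions of pum had a peak in both lists, with folds of 3.01, 2.99 and 3.16 in replicate 1 and 3.85, 3.66 and 3.43 in replicate 2. Each of 3 further peaks within pum was called in 1 list only. They were 2 coding peaks in triptolide replicate 2, with folds of 3.41 and 3.43, and an intronic peak 585 bp after TSS 2 in mock replicate 2, with a fold of 3.38. The remaining peaks counted at pum lay in its neighbours, in beag in both triptolide lists, and in D1, which encodes an AT-hook protein, in triptolide replicate 2 and mock replicate 2.

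At mub both mock sites were at TSS 2 of 2, which starts 8 of the 12 transcripts. The site 80 and 72 bp before the TSS had folds of 5.77 and 3.30, and the stronger site, 1012 and 1064 bp after it in an intron, had folds of 9.28 and 7.83. Neither had a peak after triptolide, where 2 coding regions 41.5 to 43.4 kb downstream were called in both lists with folds of 3.17 and 2.46 in replicate 1 and 3.33 and 4.87 in replicate 2.

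The genes how and bru3 gave less uniform mock peaks. At how, 3 peaks were called in mock replicate 2 with folds of 3.42, 6.02 and 4.93 and none in mock replicate 1, so no mock region was shared. Triptolide lists held a how peak 1051 and 1036 bp after its TSS in coding sequence, with folds of 2.79 and 3.87, that overlapped the second of these mock peaks. Triptolide replicate 2 held another how peak in coding sequence 29.7 kb after the TSS, with a fold of 4.38. At bru3 a weak intronic mock peak with folds of 4.60 and 3.77 had a counterpart in triptolide replicate 1 only, with a fold of 2.83. The other bru3 peaks after triptolide were each called in 1 list, namely 2 intronic peaks in replicate 1 with folds of 3.69 and 4.73 and 1 coding peak in replicate 2 with a fold of 4.50, so the triptolide lists shared no region at bru3.

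At heph, orb2 and Rbfox1 neither mock list held a peak. Triptolide lists held 1 heph peak each, in coding sequence 2988 and 2803 bp after TSS 7 of 7, with folds of 3.61 and 3.50. Rbfox1 had 2 peaks in each triptolide list, both in coding sequence, with folds of 3.66 and 3.51 in replicate 1 and 2.94 and 4.38 in replicate 2. At orb2 there were 4 peaks in triptolide replicate 2 and 0 in replicate 1, and all 4 lay in the overlapping gene CG43783, so they cannot be assigned to orb2 alone.

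**Figure D2:**
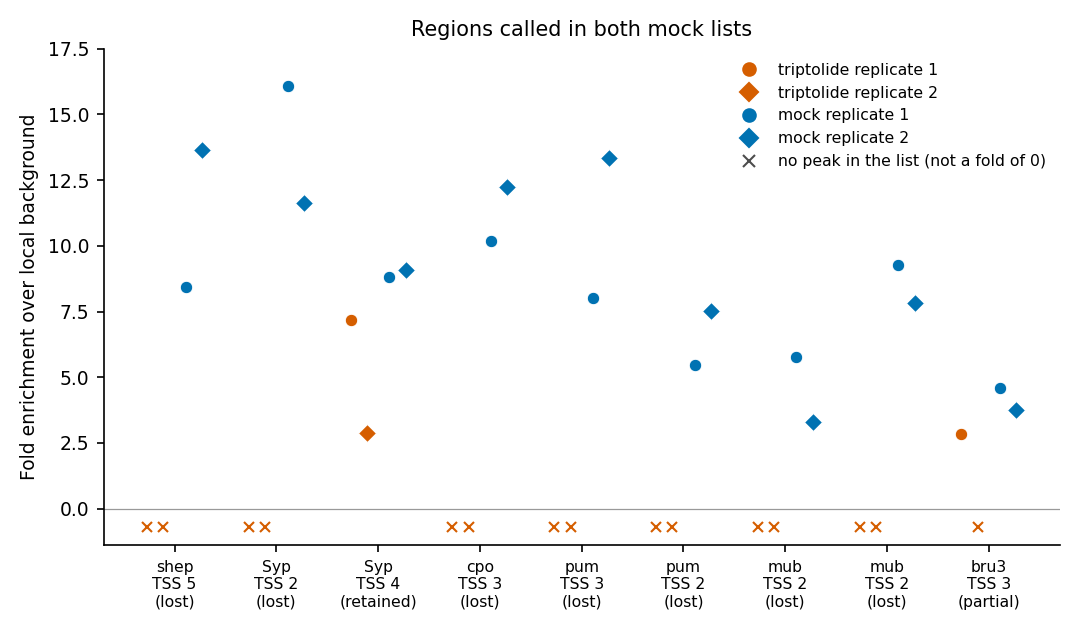
Fold enrichment over local background (y axis) at the 9 regions called in both mock lists, by gene and nearest TSS cluster, with triptolide lists in orange left of mock lists in blue. Crosses mark lists with no peak, which is not a fold of 0; 7 regions had none in either triptolide list, 1 had a peak in 1 of them (bru3, fold 2.83) and 1 in both (Syp TSS 4, folds 7.16 and 2.87).

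Counted over the 10 genes, 7 of the 9 regions called in both mock lists had no triptolide peak, 1 had a peak in 1 triptolide list and 1 was retained in both. Of all 928 such regions in the genome 64.3% were lost, 19.9% partial and 15.7% retained. The split at the 10 genes includes the lost regions for which shep, Syp and cpo were chosen. It therefore cannot be read as near to or far from these shares. By gene, 5 of the 10 had a lost region, against 4.13% of all genes and 19.4% of long genes, a count that includes the 3 genes chosen for such a region. Lost regions numbered 8 when all lists were held to a −log10 q-value of at least 5, and 11 without mock replicate 1. The lost regions outside the chosen genes were the pairs at pum and mub.

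In the other direction, 14 of the 16 regions called in both triptolide lists at these genes had no mock peak, against 90.9% of all 3098 such regions. They lay at 7 of the 10 genes, where 21.3% of all genes and 47.7% of long genes had such a region, and 2 of the 14 were the peaks within CG42322 and beag. The mock lists were much shorter, so a region called only after triptolide does not show new binding. The study's own differential binding analysis, which compared reads between treatments, reported far more AGO2 sites lost than gained after triptolide. Low folds were a trait of the triptolide lists as a whole. The median fold of triptolide peaks at the 10 genes was 3.61 and 3.66, against 3.40 and 3.46 over the whole lists. At a −log10 q-value of at least 5 the 14 regions became 3. When every list was held to its 1055 top-scoring peaks there were 2. The share of all regions left at these settings was not computed.

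Where the summits lay differed between the treatments. No mock summit fell in coding sequence or in a 5′ UTR of the 10 genes, and 10 of 10 and 13 of 15 lay in an intron, although 6 of 10 and 10 of 15 mock peaks overlapped a 5′ UTR with part of their length. After triptolide 12 of 19 and 19 of 25 summits were in coding sequence, which makes up 2.27% of the length of the genes. Over whole lists 81.7% and 86.6% of triptolide summits and 6.49% and 9.94% of mock summits lay in coding sequence of any gene, so the shift was not particular to these 10 genes.

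Summits close to a TSS of the member gene they were assigned to were all on its upstream side. Within 300 bp of such a TSS there were 1 of 19 and 1 of 25 triptolide summits, both at Syp TSS 4. The mock lists had 7 of 10 and 9 of 15, and each of these summits lay upstream. TSSs of neighbouring genes were not counted, such as that of beag, 246 bp from a triptolide replicate 2 summit assigned to pum. The 16 mock summits were 72 to 283 bp before the TSS, with a median of 152.5 bp. The whole lists were counted against TSSs of any gene, a wider rule. There 3.65% and 2.42% of triptolide summits and 40.8% and 34.8% of mock summits were that close upstream. Downstream, 10.5% and 10.8% of mock summits were that close.

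**Figure D3:**
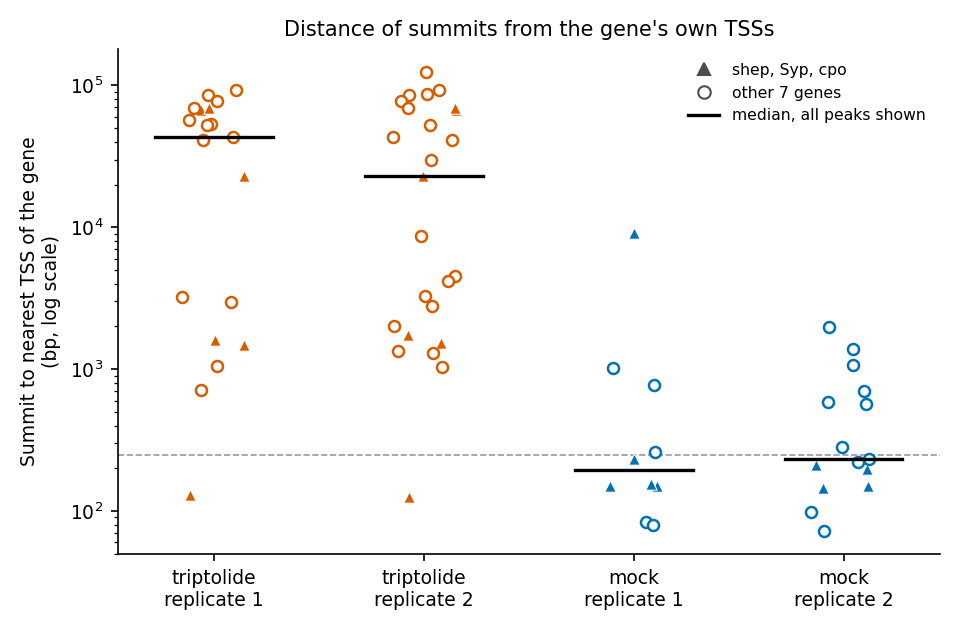
Distance from each summit to the nearest TSS of its gene (y axis, bp, log scale), for 19 and 25 triptolide peaks and 10 and 15 mock peaks. Triangles are shep, Syp and cpo, circles the other 7 genes, black bars medians of all peaks shown (43367 and 22915 bp after triptolide, 194.5 and 233 bp in mock cells), and the dashed line marks 250 bp.

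The distance was tested over the lists at the 7 genes that were not chosen for mock-only sites. Their median distance from summit to TSS was 52.3 and 29.7 kb in the triptolide lists (13 and 19 peaks) and 0.260 and 0.567 kb in the mock lists (5 and 11 peaks). The medians rest on different genes, since heph, orb2 and Rbfox1 had triptolide peaks and no mock peak. The beag summits entered at 93.2 and 93.1 kb from a pum TSS, though 317 and 246 bp from the TSS of beag. Such distances were not computed for whole lists, so the difference cannot be read as particular to these genes. Both triptolide medians were above both mock medians, and the difference of the means was 40.6 kb. It was 61174 bp when every list was held to the same number of top-scoring peaks. The two-sided exact permutation test over the 4 lists gave p = 0.333, the smallest p that 2 lists against 2 allow, so that this design cannot reach significance.

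Mock summits lay at some of the alternative TSSs of these genes. Of the 35 TSS clusters, 9 had a mock summit within 300 bp in at least 1 mock list, in shep, Syp, cpo, pum, how and mub. Among the 9 genes with several TSS clusters, 7 clusters had a mock summit in both lists, and 0 of the 7 was the TSS at the 5′ end of its gene. Over all 2595 genes with several TSS clusters, 28.1% of the 349 clusters with such a summit were the first of their gene, and in those at least as long as orb2 20.1% of 174 were. No test was run on these 7 clusters, which lie in 5 genes. They include shep TSS 5, Syp TSS 2 and TSS 4, and cpo TSS 3, in the genes chosen for mock-only sites. The 0 of 7 is therefore partly set by the choice of genes. Another, pum TSS 2, lay only 0.657 kb from the first TSS of pum. The first clusters of shep, Syp, cpo, pum and mub start 2 of 8, 7 of 20, 2 of 12, 2 of 8 and 4 of 12 transcripts.

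**Figure D4:**
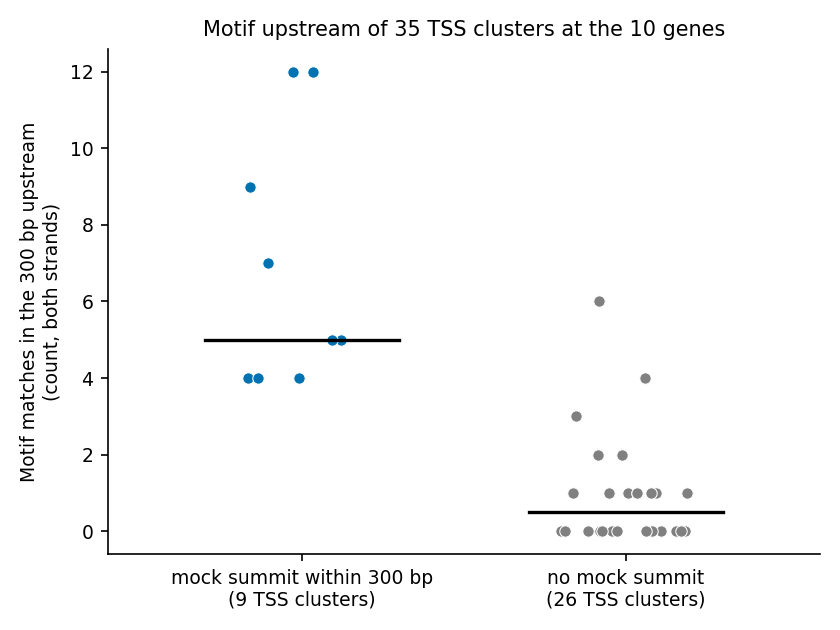
Number of GAGAG matches on either strand in the 300 bp upstream (y axis) of the 9 TSS clusters with a mock summit within 300 bp and of the 26 without. The mock summits of the left group lie inside the counted 300 bp. Points are TSS clusters and black bars medians, which were 5 and 0.5; counts ran from 4 to 12 in the left group and from 0 to 6 in the right one.

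The letters GAGAG, with CTCTC as their complement, were frequent before those TSSs. All 9 clusters with a mock summit had a match in the 300 bp upstream, with 4 to 12 matches each (overlapping matches counted) and a median of 5. Of the 26 clusters without a mock summit 13 had a match, with a median of 0.5 and up to 6 matches, and 31.6% of all 23697 annotated TSSs had one. The counts overlapped between the groups: heph TSS 1 had 6 matches and cpo TSS 2 had 4 with no mock summit at either. GC content of these 300 bp differed as well, with medians of 52% at clusters with a mock summit and 40.8% at the others, and its part in the motif counts was not tested.

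Around the summits themselves the motif followed the lists. GAGAG or CTCTC was present within 100 bp of 3 of 19 and 4 of 25 triptolide summits, against 26.0% and 22.9% of the whole lists. It was present at 10 of 10 and 14 of 15 mock summits, where the whole lists had 84.7% and 77.9%. The mock summit without it was the one within D1. Thus the mock peaks of the 10 genes held the motif about as often as other mock peaks did, and 24.3% of all TSSs had it within the same distance. Of the other motifs counted within 100 bp on both strands, CACACA was at 3 of 19 and 3 of 25 triptolide summits and at 1 of 10 and 4 of 15 mock summits, where the whole lists had 9.27% and 7.84% after triptolide and 35.1% and 32.7% in mock cells. The initiator letters TCAGT were at 0 of 19 and 1 of 25 triptolide summits and at 2 of 10 and 4 of 15 mock summits, against 20.9% and 20.5% of the triptolide lists and 31.9% and 30.7% of the mock lists. The TATA box letters TATAAA were at 0 of 19 and 0 of 25 triptolide summits and at 0 of 10 and 1 of 15 mock summits, against 1.44% and 0.969% of the triptolide lists and 6.69% and 8.19% of the mock lists.

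The triplet repeat CAGCAGCAG, counted on both strands, was present near many triptolide summits of these genes. It was within 100 bp of 10 of 19 and 13 of 25 triptolide summits, or 52.6% and 52%, against 13.4% and 14.6% of the whole triptolide lists. Among mock summits it was found at 0 of 10 and 0 of 15, against 4.75% and 4.92% of the whole mock lists. The repeat was also common in non-overlapping windows of the same length taken from the coding sequence of the 10 genes. There 25 of 74 windows (33.8%) held it, against 19 of 31 windows at triptolide summits in coding sequence (61.3%). The 74 windows cover only part of that coding sequence. Many of the 31 summits are the same site called in both lists, and no test was run on these shares. With peaks within 5000 bp of the genes included, the share of triptolide summits with the repeat was 38.8%.

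**Figure D5:**
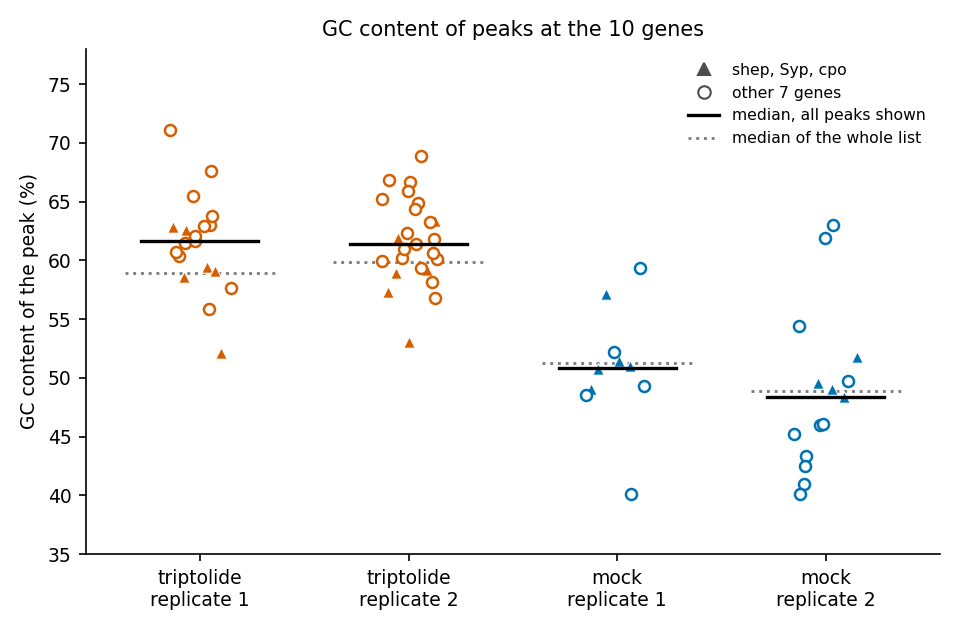
GC content of each peak at the 10 genes (y axis, %), with triptolide lists in orange left of mock lists in blue, black bars at their medians and dotted bars at the median of the whole list. Triptolide peaks had medians of 61.7% and 61.4% and mock peaks 50.9% and 48.3%, each within 3 percentage points of its list.

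Peaks of the 10 genes were richer in GC after triptolide. Their median GC content was 61.7% and 61.4% in the triptolide lists and 50.9% and 48.3% in the mock lists. The whole lists had medians of 58.9% and 59.8% after triptolide and 51.2% and 48.9% in mock cells. Both triptolide medians were above both mock medians, at the 10 genes and over the lists. The coding sequence of the 10 genes has 57.6% GC and the genes as a whole 40.5%. Windows at triptolide summits in coding sequence had a median of 63.2%, against 61.2% over the 74 coding windows, which cover only part of the coding sequence.

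A list of 44 other genes for RNA-binding proteins was examined under the same rules. A peak was present in both triptolide lists at 23 of them and in both mock lists at 10. Of the 44, 19 had a region called only after triptolide and 9 a region called only in mock cells. The shares of all genes were 25.2%, 6.2%, 21.3% and 4.13%, in that order. These genes are shorter, with a median length of 7.60 kb against 106 kb for the 10 members, and 13 of them are at least as long as orb2. Of their 18 mock regions 14 were lost, 4 partial and 0 retained, where 64.3%, 19.9% and 15.7% of all 928 mock regions were. No test was run on this split. The 10 genes with a mock region were msi, ps, Fmr1, bol, brat, Imp, Rbp9, elav, sqd and Sxl, and GAGAG was within 100 bp of the summit at the strongest mock region of all 10.

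The strongest mock sites of msi, ps and Fmr1, encoding Musashi, Pasilla and the fragile X protein, kept a peak in triptolide replicate 1. The fold at msi was 4.83 in triptolide replicate 1, with no peak in replicate 2, against 11.8 and 14.2 in mock cells. At ps it was 6.10 in triptolide replicate 1, with no peak in replicate 2, against 10.5 and 6.89 in mock cells. At Fmr1 it was 4.34 in triptolide replicate 1, with no peak in replicate 2, against 10.1 and 15.0 in mock cells. Imp, which acts in opposition to Syp, had folds of 4.70 and 5.23 at its strongest site in mock cells and no peak there after triptolide. At elav, a splicing regulator of neurons, and Sxl, the sex-determination splicing factor, mock folds were 3.78 and 9.73 and 4.76 and 4.82, with no peak at these sites after triptolide. Other genes, arg and lncRNA:enrr at elav and CG4615 at Sxl, lay within 1500 bp of these sites.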

How the data were processed

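AGO2 peak lists of 4 immunoprecipitations were analysed; the 4 inputs were not analysed here by themselves. Per the submitters' processing notes, reads were processed with cutadapt 1.10, Bowtie2, Picard 2.11.0 and MACS2 2.1.1.20160309, and the study's methods give the dm6 build, a mapping quality of at least 20 and peaks called per replicate against its input. The deposited lists give a score (the −log10 q-value multiplied by 10 and cut to a whole number), the fold ratio over local background, and the −log10 p-value and −log10 q-value that the authors' caller assigned to each peak. Mapping quality filters discard reads of repeated sequence.

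Peaks overlapping a gene or within 1500 bp of it were assigned to that gene, with genes and TSSs from the Ensembl annotation BDGP6.54 (release 115) on the same assembly. A consensus region merges overlapping peaks (1 bp) and holds a peak of both replicates of a treatment. It is lost or gained when neither list of the other treatment has a peak there, partial with 1 and retained with both. Score percentiles are ranks within a list. Presence of motifs was counted on both strands. All 10 members were named, with the genes ranked beside shep, Syp and cpo among lost regions and the 10 other RNA-binding protein genes with the highest mean score percentile of a mock region. The members and lists were chosen with earlier results of these data known. Lists were compared with a two-sided exact permutation test in SciPy 1.17.1 (Python 3.11.15, NumPy 2.4.6), and region, distance and cluster functions were tested on simulated data. Replicate numbers in the labels say nothing of a shared batch, so lists were not paired. Alternatives covered distance, score, overlap, replicate and motif window.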

Additional observations from a re-analysis of the deposited data

How the results depend on the processing

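In total 126 alternatives were run, of which 31 moved a count or share beyond its tolerance. In the other 95 a count or share stayed within tolerance or the distance difference kept its direction. The number that reversed a direction was 0, but only the distance difference has a direction, so a count or share could not reverse. At a −log10 q-value of at least 5, genes with a peak in both triptolide lists numbered 3, retained mock regions 0 and gained regions 3, and with the same number of top-scoring peaks per list they numbered 2, 0 and 2. With a peak in 1 replicate sufficient, mock regions numbered 16, lost regions 12, retained regions 2 and gained regions 24. Leaving out each replicate in turn gave 9 to 15 mock regions and 7 to 11 lost, 1 to 2 retained and 14 to 22 gained regions, the highest counts of mock and lost regions without mock replicate 1 and of gained regions without triptolide replicate 1.

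Shares of summits are means of the lists. The share of triptolide summits with CAGCAGCAG was 52.3%, and 68.2% within 200 bp, 55% for peaks overlapping the gene itself, 38.8% for peaks within 5000 bp and 45% for equal numbers of peaks. The share of triptolide summits with GAGAG was 15.9%, and 27.2%, 18.3%, 16.8% and 10% in those settings and 7.14% at the q-value limit. The share of triptolide summits at most 250 bp from a TSS of the assigned gene was 4.63%. It was 3.41% for peaks within 5000 bp, 7.14% at the q-value limit and 10% for equal numbers. Mock summits with GAGAG made up 96.7%, and 89.2% for peaks within 5000 bp. The share of mock summits at most 250 bp from a TSS of the assigned gene was 56.7%. It was 65% within 500 bp, 61.9% at the q-value limit and 61.8% for equal numbers. The distance difference of 40577.5 bp had an exact p of 0.5 with the replicate block, the smallest that 2 pairs allow, and ran from 29288.5 to 51866.5 bp with each replicate left out. It was 58930.2 bp at the q-value limit and 61174 bp for equal numbers of peaks. The cause of these moves was not tested. Unknown depth limits every statement on a missing peak.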
